A study of Mus musculus with 202 samples.

Results

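The mRNAs of 8 amino acid transporter genes (Slc7a11, Slc3a2, Slc7a5, Slc7a3, Slc7a1, Slc1a4, Slc1a5 and Slc38a2) were followed in individually captured cells from a line of mouse pancreatic ductal adenocarcinoma. They were picked by gene symbol out of the 28987 genes of the deposited table, and each of the 8 stood on 1 row. The line came from a liver metastasis of a male mouse of the KPC strain and was grown at passages 4 to 6 in DMEM with 10% serum. No other treatment is labelled. Cells were sorted on the surface protein E-cadherin into a positive fraction (Ecad+, 104 libraries) and a negative fraction (Ecad-, 98 libraries). The labels name 1 line and no separate cultures or animals, so each fraction is 1 sample, cells are not replicates, and comparisons are described with no test.

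Levels are in TPM (transcripts per 1000000), a unit that corrects for transcript length and so allows genes to be compared with each other. Ratios are log2 of the mean level in Ecad- over that in Ecad+ cells, each with 1 TPM added, which understates the difference of low genes. TPM holds no read depth, so no counting error of a level can be given, and a value of 0 says that the table lists the gene at 0, no more. A gene was counted as above the floor with a mean of at least 5 TPM and values above 0 in at least 10% of cells. Of the 8 transporters 7 were above it, and Slc1a4 was under the minimum mean.

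Some facts of the whole table bear on all values below. After averaging 5 library pairs that correlated at 0.984 or more, 100 Ecad+ and 97 Ecad- cells remained. Genes above 0 numbered 8243 to 12759 per Ecad+ cell and 4168 to 12051 per Ecad- cell. The library names carry 3 suffixes of unstated meaning, here called library sets 1 to 3. Mitochondrial genes took less than 1% of TPM in 40 Ecad- cells and in 1 Ecad+ cell (low-share cells), and the main ratios are also given without them. The part of these cells in any difference was otherwise not tested. In Ecad- libraries they numbered 6 of 33, 12 of 32 and 22 of 33 in sets 1, 2 and 3. With all cells counted, the fractions also stood apart in mitochondrial share, whose medians were 30.0% (positive) and 8.78% (negative). Genes of a cell share its TPM total, so this gap bears on the levels of all other genes. Over the 7227 genes above the floor the median log2 ratio was 0.31, and 0.14 without low-share cells. A gene with a ratio near these values thus moved with the bulk of genes. After cells were rescaled to a total without mitochondrial and ribosomal protein genes, the all-gene median was 0.01. Of the epithelial and ductal markers 7 of 8 were above the floor, with Cdh1, the gene of the sorted protein, at 37.9 TPM in the positive and 16.1 TPM in the negative fraction. Of these 7 markers 5 were at least 2-fold lower in Ecad- cells and 6 lower in each library set. This list summed to a mean of 4466 TPM per Ecad+ cell (758 to 12020) and 2301 TPM per Ecad- cell (5.37 to 12184). None of the 29 immune, fibroblast, endothelial, acinar and endocrine markers was above it. The highest sums in an Ecad+ and an Ecad- cell were 1.83 and 49.9 TPM for the immune, 5.03 and 27.4 TPM for the fibroblast, 1.11 and 67.7 TPM for the endothelial, and 24.2 and 38.7 TPM for the acinar and endocrine list, and the lowest were 0. Ptprc, Col3a1, Lum, Ins1 and Gcg were listed at 0 in every cell. Genes at 0 throughout were 3 of 8 immune, 3 of 8 fibroblast, 0 of 5 endothelial and 6 of 8 acinar and endocrine markers. Other markers had low values in many cells of the positive and negative fractions: Vwf in 71 and 68, Col1a1 in 66 and 58, Itgam in 49 and 45. Mean Vwf, an endothelial marker, rose from 0.25 to 3.90 TPM, a log2 ratio of 1.97, or 0.59 without low-share cells. Of 6 hepatocyte markers, Ttr and Cyp2e1 were above the floor and Fgb was at 0. The hepatocyte list summed to 0 to 219 TPM per Ecad+ and 0 to 649 TPM per Ecad- cell.

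Cells take up most amino acids through carriers in the plasma membrane, and several carriers are heterodimers. Slc3a2 encodes the heavy chain (4F2hc, CD98), a glycoprotein that brings light chains of the Slc7 family to the surface and is joined to them by a disulfide bond. When amino acids run short or proteins misfold in the endoplasmic reticulum, kinases phosphorylate eIF2alpha, and the transcription factor ATF4 is translated more. ATF4 binds C/EBP-ATF response elements (CARE) in genes of amino acid uptake and synthesis, and the 8 genes here include well known targets of this response.

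The promoters of 5 of the 8 genes had an entry in the RefSeq table used here (GRCm38.p6, 250 bases before to 50 after the transcription start). Slc7a5, Slc7a3 and Slc1a5 had none. Each window was searched on both strands for the CARE core TGATGNAA, where N is any base. Of all 32851 windows 3.97% held it, and 0.07%, or 23 windows, held it at least 2 times. Slc7a11 was among these 23, and Slc1a4 held it 1 time. The windows of Slc3a2, Slc7a1 and Slc38a2 did not contain these letters, and the rest of these genes was not searched. For comparison, 6 of 18 genes of the ATF4 and amino acid response list with an entry held the core in any of their windows. This counts genes, while the 3.97% counts windows. The stretches of Slc7a11 and Slc1a4 are shown because Slc7a11 is among the genes with the largest differences below. Both read 5′ to 3′ on the minus strand, with matches to the core in capitals. The Slc7a11 stretch is chr3:50443614-50443763, the 150 bases before the start, and the Slc1a4 stretch is a 30 base site across the start at chr11:20332699-20332728.
Slc7a11: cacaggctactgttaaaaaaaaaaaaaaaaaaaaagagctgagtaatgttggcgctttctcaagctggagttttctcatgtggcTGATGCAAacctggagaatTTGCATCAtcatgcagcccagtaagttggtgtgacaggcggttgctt
Slc1a4: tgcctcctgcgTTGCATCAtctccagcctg
With the start counted as 0, the Slc7a11 matches lie at -66 to -59 and, in the opposite orientation, at -47 to -40. The Slc1a4 match lies at -4 to 3, also in the opposite orientation. A second pattern, TGACNNNGC, the core of the antioxidant response element bound by NRF2, was found in the windows of Slc7a1 and Slc38a2 and in 12.4% of all windows. No window of these genes held both patterns, so matches to them do not overlap. A match describes letters in a window and not a bound site.

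The transporters differed in how far apart the fractions stood. The 8 genes were chosen with earlier results of these data known, so their counts beside all genes are descriptions. They include Slc1a4, which is below the floor. Slc3a2, Slc7a11 and Slc7a3 were at least 2-fold higher in Ecad- cells, which is 3 of 8, against 14.2% of all genes above the floor. Without low-share cells the count was again 3 of 8, against 4.94% of genes, but Slc7a3 then stood at 0.39 in set 2. No transporter was 2-fold lower (4.14% of genes). Of the 8 genes, 6 were higher in each of the 3 library sets, against 44.9% of genes. Without low-share cells 4 of 8 were, as Slc7a5 turned in set 3 and Slc1a4 in sets 1 and 3. The matching share of all genes without these cells was not counted, so 44.9% is not the background of this count. The median log2 ratio of the 8 was 0.86, and 0.56 without low-share cells. Among the 88 other genes with an Slc symbol above the floor, 17 were at least 2-fold higher and the median was 0.32.

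**Figure D1:**
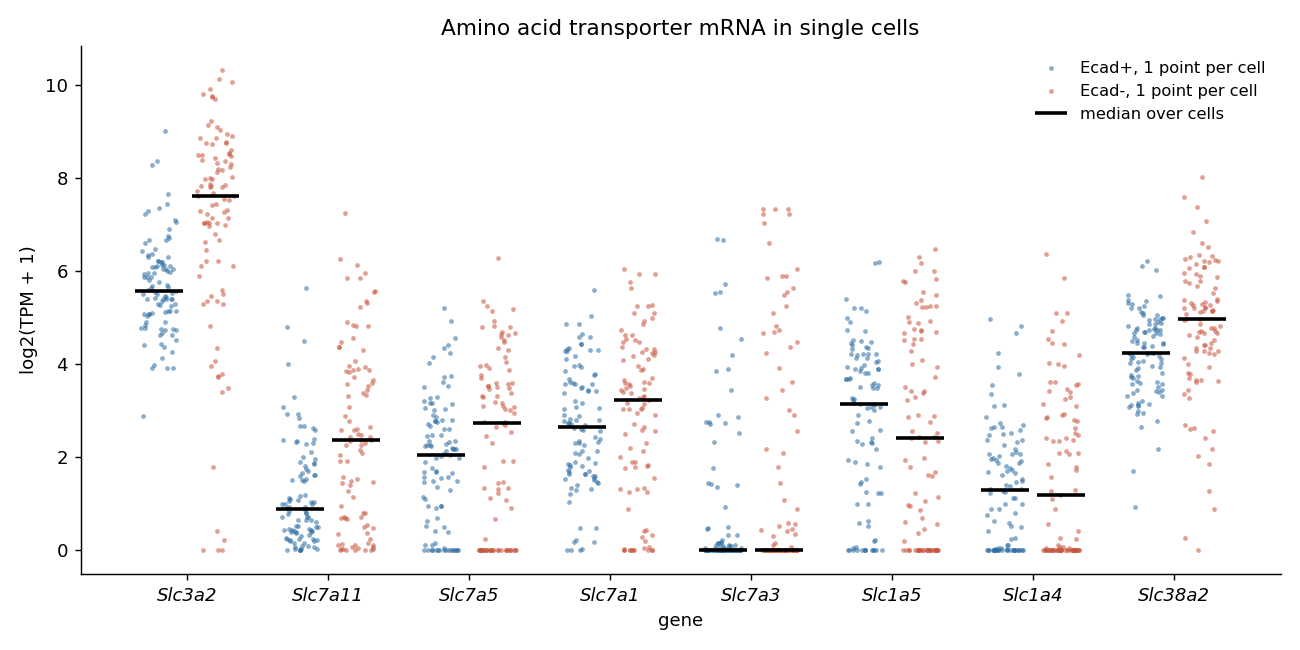
Level of the 8 transporters in each cell, as log2(TPM + 1) on the vertical axis, with genes on the horizontal axis, 100 Ecad+ cells in blue, 97 Ecad- cells in red and the median over cells as a bar. Slc3a2 and Slc7a11 have clearly separated medians, the Slc7a3 median is 0 in both fractions, and the ranges of the fractions overlap for every gene.

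Slc3a2, the shared heavy chain, was the most abundant of the 8 in both fractions. It lies on chromosome 19 at 8706882 to 8723369 (mm10, minus strand, ENSMUSG00000010095). In Ecad+ cells it ran from 6.42 to 515 TPM with a median of 46.9 TPM. In Ecad- cells it ran from 0 to 1284 TPM with a median of 195 TPM. The ranges overlapped, but 72 of 97 Ecad- cells lay above the upper quartile of Ecad+ cells, 72.6 TPM. Mean levels were 66.7 ± 69.2 TPM (SD over cells) and 264 ± 269 TPM, a log2 ratio of 1.97. Within library sets 1, 2 and 3 the ratio was 1.37, 1.76 and 2.54. Low-share Ecad- cells had a mean of 387 TPM and the other Ecad- cells 178 TPM, and the ratio without low-share cells was 1.46. The difference was thus smaller without them, and then lay between 1.15 and 1.67 in the sets. At the low end 15 of 97 Ecad- cells were below the lower quartile of Ecad+ cells, and 3 were listed at 0.

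Slc7a11 encodes xCT, the light chain that exports glutamate in exchange for cystine, the source of cysteine for glutathione. Its gene (ENSMUSG00000027737) spans chromosome 3 from 49892526 to 50443614. By mean it was the least abundant of the 8 in Ecad+ cells, where it ran from 0 to 48.9 TPM with a median of 0.859 TPM. In Ecad- cells it ran from 0 to 151 TPM with a median of 4.19 TPM. The 2 fractions listed it above 0 in nearly equal shares of cells, 96 of 100 and 92 of 97. Values above 0 include very low ones, such as those under the Ecad+ median of 0.859 TPM, so these shares do not measure detection. A level of at least 10 TPM was reached in 4 of 100 Ecad+ cells (exact Clopper-Pearson 95% interval 1.10% to 9.93%) and in 33 of 97 cells of the negative fraction, which is 34.0% (24.7% to 44.3%). Such intervals hold for counting error alone, with each cell taken as independent. Means stood at 2.64 ± 6.12 TPM for the positive and 12.6 ± 21.7 TPM for the negative fraction, with a log2 ratio of 1.90. Within the sets it was 0.81, 2.31 and 2.46. The lower value in set 1 went with a higher Ecad+ mean there, 5.50 TPM against 1.39 and 2.11 TPM in sets 2 and 3, while the Ecad+ medians of the sets were 1.03, 0.831 and 0.989 TPM. The highest Ecad+ cell, at 48.9 TPM, was the 1 low-share cell of that fraction, and without low-share cells the ratio in set 1 was 1.36. Low-share and other Ecad- cells had means of 14.6 and 11.1 TPM, and the ratio without low-share cells was 1.93. Of all genes above the floor, 97.4% had a lower ratio than Slc7a11, and 99.3% without low-share cells. In each fraction a small number of cells carried much of the mRNA, the top 10 cells holding 58.2% of the Ecad+ sum and 52.8% of the Ecad- sum.

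Slc7a5 encodes LAT1, the light chain that imports leucine and other large neutral amino acids in exchange for glutamine. It lies on chromosome 8 at 121881150 to 121907694. Its level ran from 0 to 36.2 TPM in Ecad+ cells, with a median of 3.16 TPM, and from 0 to 76.4 TPM in Ecad- cells, with a median of 5.65 TPM. Fewer Ecad- cells listed it above 0, 68 of 97 against 84 of 100 Ecad+ cells, but more reached 10 TPM, 34 against 13. Ecad- cells thus stood above Ecad+ cells at the high end and below them in the share above 0. Ecad- cells also had fewer genes above 0 in all. The means were 4.84 and 9.21 TPM, a log2 ratio of 0.81. In library sets 1 to 3 the ratio was 0.47, 0.55 and 1.26. Without low-share cells it was 0.58, and -0.50 in set 3, where 11 Ecad- libraries remained.

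The heavy chain and its light chains did not differ by the same amount. Besides Slc7a11 and Slc7a5, the light chains that pair with Slc3a2 are Slc7a6 and Slc7a7, which exchange cationic for neutral amino acids, and Slc7a8 and Slc7a10. Slc7a7, Slc7a8 and Slc7a10 were added after their values were seen, to complete the set. Summed, the light chains averaged 24.5 TPM in the positive fraction against 32.3 TPM in the negative, which is a log2 ratio of 0.39, against 1.97 for Slc3a2. Without low-share cells the sum stood at 0.35, against 1.46 for Slc3a2. Mean Slc3a2 exceeded the mean light chain sum 2.73 times in the positive fraction and 8.19 times in the negative. Without low-share cells the means of Slc3a2 and of the sum were 64.3 and 23.6 TPM in Ecad+ cells. In Ecad- cells they were then 178 and 30.2 TPM, closer together than over all Ecad- cells. The make-up of the light chains also differed. Slc7a6 was the most abundant light chain in Ecad+ cells, with 13.0 TPM against 7.42 TPM in the negative fraction. This is a log2 ratio of -0.73 that was negative in each set (-0.56, -0.62 and -1.12) and -0.49 without low-share cells. In Ecad- cells Slc7a11 had the highest mean of the light chains, 12.6 TPM against 9.21 TPM for Slc7a5, but a lower median than Slc7a5, 4.19 against 5.65 TPM. Slc7a7 had 4.01 and 3.07 TPM, and Slc7a8 and Slc7a10 had means under 0.01 TPM in both fractions.

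**Figure D2:**
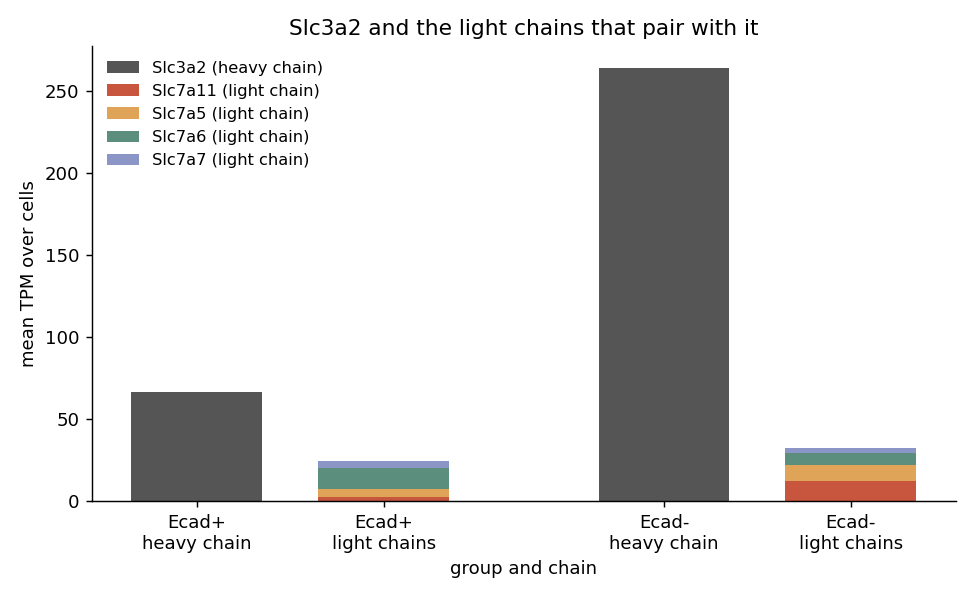
Mean TPM over cells (vertical axis, from 0) of the heavy chain Slc3a2 in grey and of 4 of its light chains as stacked colours, in each fraction. The heavy chain bars reach 66.7 TPM (Ecad+) and 264 TPM (Ecad-), while the stacks reach 24.5 and 32.3 TPM with a larger Slc7a11 part and a smaller Slc7a6 part in Ecad- cells. Slc7a8 and Slc7a10 are near 0 and not drawn, and no error bars are shown because each fraction is 1 sample.

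The cationic amino acid transporters Slc7a1 and Slc7a3, which bring in arginine and lysine without a heavy chain, had unlike distributions. Slc7a3 (CAT3, chromosome X, 101079210 to 101086020) was listed above 0 in 47 of 100 Ecad+ and 47 of 97 Ecad- cells, so its median was 0 and 0 TPM. Its highest cell reached 102 TPM in the positive and 162 TPM in the negative fraction. A level of at least 10 TPM was seen in 10 of 100 cells of the positive fraction (4.90% to 17.6%). In the negative fraction 25 of 97 cells reached it (25.8%, 17.4% to 35.7%). Among cells above 0 the median was 1.58 TPM in the positive and 14.1 TPM in the negative fraction. The gene was listed above 0 in a similar share of cells, and at a higher level in those Ecad- cells that listed it. The means were 5.07 ± 16.6 and 17.5 ± 39.0 TPM, a log2 ratio of 1.61, and the top 10 cells held 86.8% of the Ecad+ sum and 70.1% of the Ecad- sum. Within the sets the ratio was 0.99, 1.44 and 3.25. In set 3 the Ecad+ mean was 0.761 TPM, with 8 of 37 libraries above 0. Without low-share cells the ratio was 1.28, with 1.01, 0.39 and 3.60 in the sets. The gene was above 0 in 26 of 40 low-share and 21 of 57 other Ecad- cells.

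Slc7a1 (CAT1, chromosome 5, 148327410 to 148399904), the widely expressed cationic carrier, ran from 0 to 47.7 TPM in Ecad+ cells with a median of 5.32 TPM. In Ecad- cells it ran from 0 to 65.2 TPM with a median of 8.39 TPM. The means were 8.16 and 12.6 TPM, a log2 ratio of 0.57, with 0.46, -0.05 and 1.45 in the sets. Its difference went with the low-share cells. These had a mean of 19.0 TPM, the other Ecad- cells had 8.10 TPM, and without low-share cells the ratio was -0.01.

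The remaining carriers move small neutral amino acids. Slc38a2 encodes SNAT2, which takes up alanine, glutamine and other neutral amino acids together with sodium, and was the most abundant of the 8 after Slc3a2. Its gene lies on chromosome 15 at 96687392 to 96699730. It ran from 0.915 to 73.5 TPM in Ecad+ cells, with a median of 18.0 TPM, and from 0 to 259 TPM in Ecad- cells, with a median of 30.2 TPM. It was above 0 in 100 of 100 Ecad+ and 96 of 97 Ecad- cells, so values of 0 hardly entered its difference. With means of 21.0 and 40.3 TPM, its log2 ratio was 0.91. The sets gave 0.33, 0.81 and 1.27, and the value without low-share cells was 0.54.

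Slc1a5 encodes ASCT2, an exchanger that brings in glutamine. It lies on chromosome 7 at 16781340 to 16798274. It ran from 0 to 72.1 TPM in Ecad+ cells with a median of 7.90 TPM, and from 0 to 88.0 TPM in Ecad- cells with a median of 4.31 TPM. The median was lower and the mean higher in Ecad- cells (means of 11.2 and 14.3 TPM), and values spread wider there. It was listed at 0 in 28 of 97 Ecad- cells and 13 of 100 Ecad+ cells, while the upper quartiles were 24.5 and 16.0 TPM. Its log2 ratio of 0.33 was at the all-gene median, was -0.01 in set 2, and turned to -0.30 with means of log values, a scale on which the all-gene median was -0.28. Without low-share cells it was 0.41.

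Slc1a4 encodes ASCT1, an exchanger of alanine, serine and cysteine. It lies on chromosome 11 at 20302180 to 20332713. It ran from 0 to 30.5 TPM with a median of 1.45 TPM in Ecad+ cells, and from 0 to 81.6 TPM with a median of 1.29 TPM in Ecad- cells. It was above 0 in 74 of 100 and 60 of 97 cells. Means of 3.09 and 6.15 TPM gave a log2 ratio of 0.80, with 0.13, 1.45 and 0.42 in the sets and 0.28 without low-share cells. The medians thus did not share the direction of the means.

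**Figure D3:**
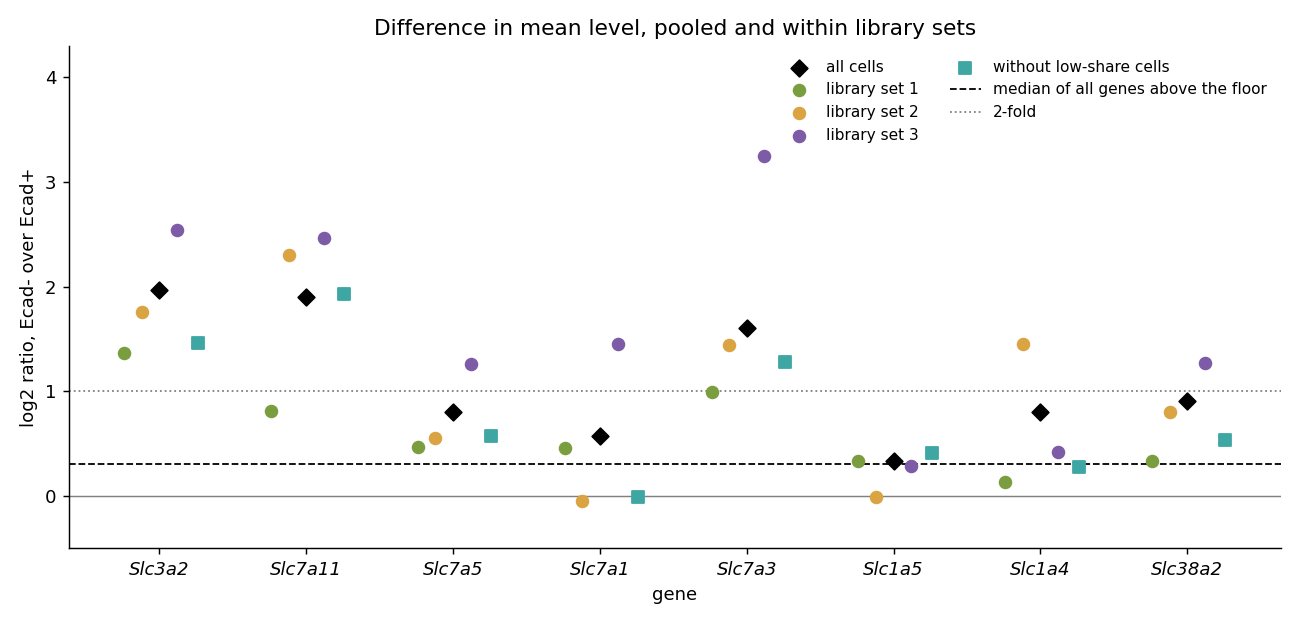
Log2 ratio of mean level in Ecad- over Ecad+ cells (vertical axis) for each transporter (horizontal axis): all cells (black diamonds), each library set (circles) and without low-share cells (squares), with the all-gene median of 0.31 dashed and a 2-fold difference dotted. Slc3a2, Slc7a11, Slc7a3, Slc7a5 and Slc38a2 lie above the dashed line in each set. Slc7a1 drops to -0.01 without low-share cells, and Slc1a5 over all cells lies near the dashed line.

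The order of mean levels was alike at its top and differed below. In both fractions Slc3a2 was above Slc38a2, and Slc38a2 above all others, with no overlap between the library set means of these neighbours. In Ecad+ cells the others followed as Slc1a5, Slc7a1, Slc7a3, Slc7a5, Slc1a4 and Slc7a11, where the set means of each gene overlapped with those of the gene above it. In Ecad- cells they followed as Slc7a3, Slc1a5, Slc7a1, Slc7a11, Slc7a5 and Slc1a4, where set means of neighbours overlapped except between Slc7a5 and Slc1a4. Summed over the 8 genes, a cell had 27.6 to 648 TPM in Ecad+ (median 97.5) and 12.7 to 1475 TPM in Ecad- (median 313). Slc3a2 made up 54.4% of the mean sum in Ecad+ and 70.1% in Ecad- cells. Without Slc3a2 the sum of the others stood at a log2 ratio of 1.00, and 0.69 without low-share cells.

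Cells within a fraction also differed, and the transporters went together to unequal degrees. Rank correlations across cells of a fraction are given as descriptions, since cells of 1 sample share library handling, and TPM of genes in a cell share its total. Over the 28 pairs of transporters the median Spearman rho was 0.19 in Ecad+ and 0.25 in Ecad- cells, with a range of -0.05 to 0.48 and -0.01 to 0.58. Without low-share cells the Ecad- median was 0.31. After each cell was rescaled to a total without mitochondrial and ribosomal protein genes, the medians were 0.18 and 0.20. Over all cells the closest pair was Slc3a2 and Slc7a1 in the negative fraction, at 0.58 (0.64 without low-share cells), and Slc3a2 and Slc7a5 in the positive, at 0.48. Slc3a2 and Slc7a11, the chains of the cystine exchanger, stood at 0.22 in Ecad+ cells and 0.44 in Ecad- cells, or 0.65 in Ecad- cells without low-share cells. Within the Ecad+ sets this pair ranged from -0.25 to 0.86, and within the Ecad- sets from 0.41 to 0.48. Slc1a5 and the heavy chain stood at 0.08 in Ecad- cells, or 0.30 without low-share cells.

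Levels of the transporters were then set beside Asns, the asparagine synthetase that is a classical ATF4 target, Atf4 itself and Ddit3, which encodes the stress factor CHOP. Slc7a11 went most closely with Asns, with a rho of 0.46 over 100 Ecad+ and 0.67 over 97 Ecad- cells, and 0.68 over the 57 Ecad- cells left without low-share cells. It lay between 0.31 and 0.71 in the 6 blocks of fraction and library set. Slc3a2 stood at 0.54 with Atf4 in Ecad+ and 0.59 in Ecad- cells (0.63 without low-share cells). With Ddit3 it stood at 0.28 and 0.64 (0.74). Slc38a2 stood at 0.34 and 0.51 (0.45) with Atf4. Slc1a5 stood at 0.22 and 0.07 with Ddit3, but at 0.28 in Ecad- cells without low-share cells, where the order of the fractions turned. Whether these values differ between the fractions was not tested. In Ecad- cells most transporters also went down with the mitochondrial share of TPM. Slc3a2 stood at a rho of -0.55 and Slc7a1 at -0.38. Slc1a4 and Slc38a2 stood at -0.30, Slc7a3 and Slc7a5 at -0.29, Slc7a11 at -0.14 and Slc1a5 at -0.002. In Ecad+ cells the values ran from -0.37 for Slc38a2 to 0.07 for Slc7a3, with Slc3a2 at -0.36 and Slc1a5 at -0.27.

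**Figure D4:**
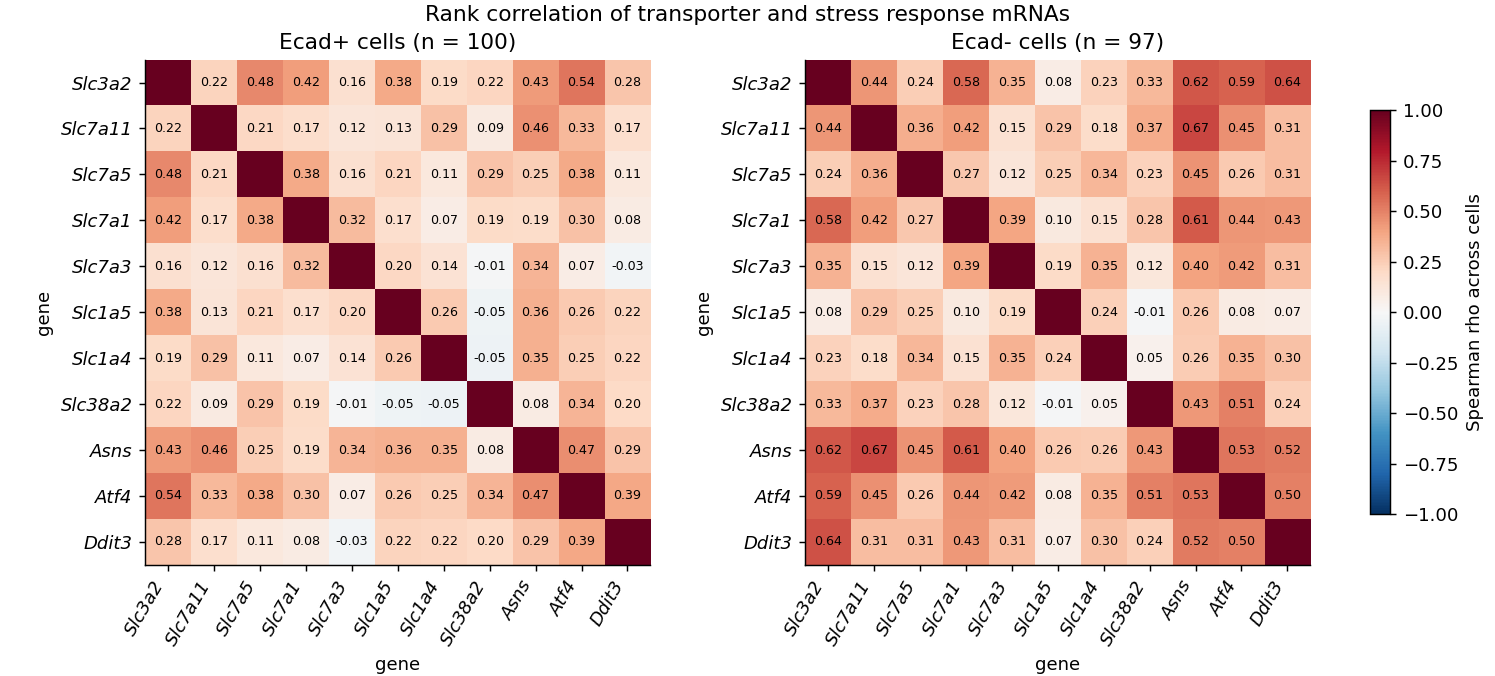
Spearman rho across the cells of each fraction (colour scale and printed values) for the 8 transporters, Asns, Atf4 and Ddit3 on both axes. In Ecad- cells the highest values that involve a transporter join Slc7a11 with Asns (0.67) and Slc3a2 with Ddit3 (0.64) and Asns (0.62), and the row of Slc1a5 stays between -0.01 and 0.29.

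For each of the 7 transporters above the floor, the 2 most alike genes were taken as those with the highest mean rho over the 6 blocks, among 7181 genes above 5 TPM and above 0 in at least 25% of cells. For Slc7a11 these were Asns (mean rho 0.56) and Psph (0.55), the phosphatase that completes serine synthesis. For Slc3a2 they were Got1 (0.59), the cytosolic aspartate aminotransferase, and Hspa9 (0.57), a mitochondrial chaperone, and Atf4 ranked 4 at 0.56. For Slc7a5 they were Srm (0.53), spermidine synthase, and Phgdh (0.53), which opens serine synthesis. The log2 ratio between the fractions was -0.17 for Srm. For Phgdh it was 0.03 over all cells, but 0.09, -0.69 and 1.27 in the library sets. For Slc7a1 the closest were Slc3a2 (0.49) and the seryl-tRNA synthetase Sars (0.47). For Slc1a5 they were Cth (0.42), which makes cysteine from cystathionine, and Eif4ebp1 (0.40), a translation inhibitor. For Slc38a2 they were Atf4 (0.42) and Dazap2 (0.42), and for Slc7a3 Srp54b (0.40) and Slc35c2 (0.38). Atf4 ranked lower for the rest, at 11 for Slc7a11, 48 for Slc7a1, 118 for Slc7a5, 198 for Slc7a3 and 1507 for Slc1a5. Single blocks varied, as from 0.11 to 0.79 for Slc3a2 with Hspa9 and from 0.15 to 0.86 for Slc7a11 with Psph.

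Other amino acid transporters were taken by where they act. Of 40 other transporters of the cell surface, 37 were below the floor. Slc38a6, a relative of Slc38a2, averaged 38.5 TPM in the positive and 110 TPM in the negative fraction, a 2.82-fold difference of means with 1 TPM added. Without low-share cells its log2 ratio was 1.01, with 0.42, 1.86 and 0.21 in the sets. The taurine carrier Slc6a6 (20.3 and 12.6 TPM, -0.65, or -0.74 without low-share cells) and Slc7a6 were lower in each set. Of 9 transporters of the lysosome membrane, 4 were above the floor, and these 4 were all at least 2-fold higher in Ecad- cells under the setting used here and higher in each set. Ctns, the lysosomal cystine exporter, had 4.01 and 22.8 TPM, a log2 ratio of 2.25. Slc38a7, a lysosomal glutamine exporter, stood at 1.61, the histidine and peptide carrier Slc15a4 at 1.51, and the cationic amino acid exporter Pqlc2 at 1.35. Without low-share cells they stood lower, at 1.00 for Ctns, 0.71 for Slc38a7, 1.01 for Slc15a4 and 0.88 for Pqlc2.

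Genes on paths that the transported amino acids enter, with regulators and neighbouring enzymes in the same lists, were mixed. From cystine to glutathione, 11 of 15 genes were above the floor, with a median of 0.45. Of these, 3 were at least 2-fold higher (Hmox1, Cth and Chac1) and none 2-fold lower. The glutathione synthesis genes Gclc, Gclm and Gss, named after their values were seen, stood at 0.03, 0.64 and -0.60. Without low-share cells they were at 0.26, 0.86 and -0.32. Cth averaged 28.3 and 109 TPM in the positive and negative fractions, a log2 ratio of 1.91, or 2.47 without low-share cells. Hmox1, an NRF2 target that breaks down heme, stood at 2.03, with 2.13, 0.77 and 3.05 in the sets. Without low-share cells Hmox1 was at 1.12, with 1.33, -0.41 and 2.11 in the sets. Chac1, which degrades glutathione, stood at 1.48, with 0.26 in set 1 and 3.27 in set 3, and was under 2-fold at 0.79 without library set 3. The glutathione reductase gene Gsr was lower at -0.96 (80.4 and 41.0 TPM), and leaving out low-share cells gave -0.77. Among enzymes of glutamine and arginine use, 13 of 17 were above the floor and the median was 0.34, close to that of all genes. Asns stood at 1.69 (140 and 453 TPM), Got1 at 1.00 (0.78 without library set 3) and Azin1, which promotes polyamine synthesis, at 0.89. Without low-share cells Got1 was at 0.29 and Azin1 at 0.05, but Asns at 1.58.

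The ATF4 and amino acid response list had 11 of 16 genes above the floor at least 2-fold higher and a median of 1.36, or 1.07 without low-share cells. This list was chosen with its values in these cells known. Ddit3 stood at 4.13, Trib3, an inhibitor of ATF4 and CHOP, at 2.61, Nupr1, a stress-induced chromatin protein, at 2.60 and Atf4 at 2.22. Without low-share cells Ddit3 was at 3.07, Trib3 at 2.24, Nupr1 at 2.35 and Atf4 at 1.16. Of the 8 transporters 3 (Slc3a2, Slc7a11 and Slc7a3) had ratios above this list's median and 5 below it. Of 6 genes for proteins that bind the transporters or control their turnover, the 4 above the floor were Otub1 at 0.46, Rnf5 at -0.34, Itgb1 at -0.22 and Cd44 at -0.11. The other genes, Bsg and Nedd4l, were below the floor and are named after their values were seen. Bsg stood at 1.33, or -0.15 without low-share cells, and Nedd4l at 1.24, or 0.79. The glucose carrier Slc2a1 and the lactate carrier Slc16a1 stood at 0.35 each, and the glucose carrier Slc2a3 (2.28 and 8.25 TPM) was 2.83-fold higher with 1 TPM added, with a log2 ratio of 0.48 without library set 3.

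**Figure D5:**
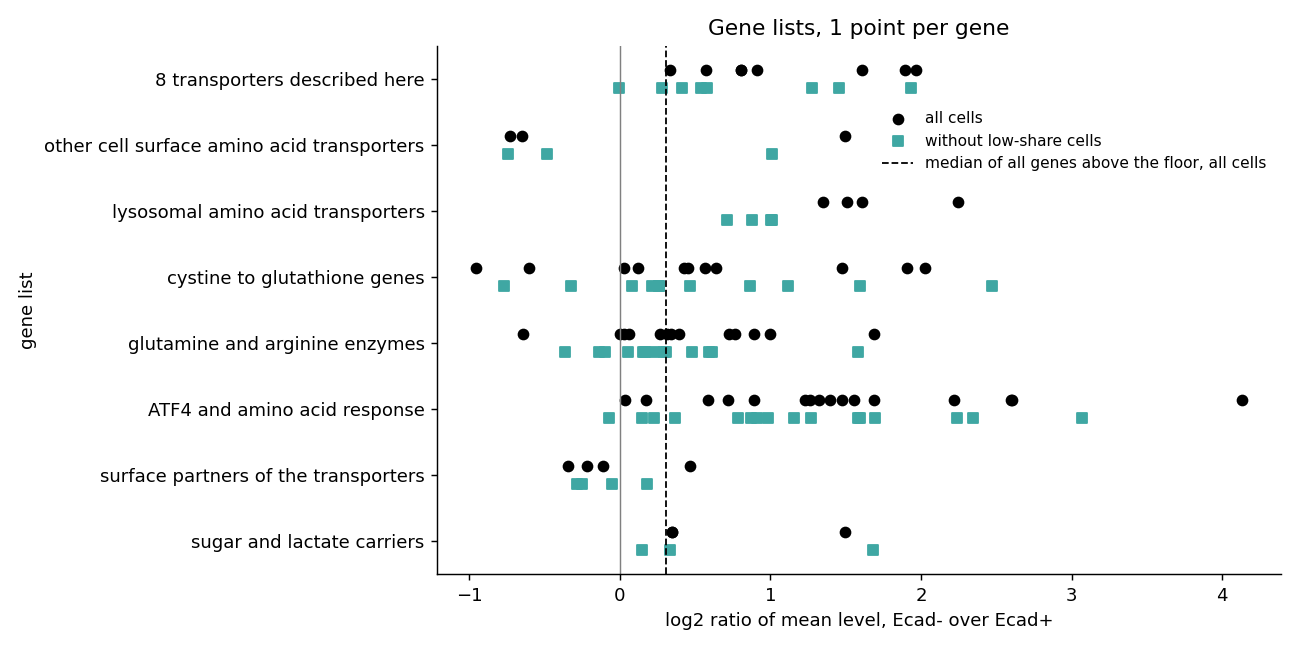
Log2 ratio of mean level in Ecad- over Ecad+ cells (horizontal axis) for the 8 transporters and each gene of the other lists above the floor (lists on the vertical axis), over all cells (black) and without low-share cells (squares), with the all-gene median of 0.31 dashed. The 8 transporters run from 0.33 to 1.97 over all cells, the lysosomal transporters from 1.35 to 2.25, and the surface partners above the floor lie between -0.34 and 0.46.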

How the data were processed

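Single cells were captured on a Fluidigm C1, amplified with SMARTer and made into Nextera XT libraries, per the labels' protocols. Neither molecular identifiers nor strand are recorded by this chemistry. The authors deposited log2 values for 28987 genes in 202 libraries. FastQC 0.11.5, kallisto and mm10 are listed, per the submitters' processing notes. Which transcript index and cell filters were used is not stated in them. Back-transformed values summed to 933711 to 987134 per library and were read as log2(TPM + 1).

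Library pairs with Pearson r over 0.97 (4 Ecad+, 1 Ecad-) were averaged as 1 cell for pooled values and left apart within library sets. Positions are from GENCODE M21 (GRCm38). No exon of the 8 genes overlapped an exon of another gene there. Python 3.11.15, numpy 2.4.6, pandas 2.3.3, scipy 1.17.1 and matplotlib 3.10.9 were used, and the ratio and correlation code was tested on simulated data. Members and lists were chosen with earlier results of these data known. Named genes are the 8 transporters, up to 4 genes per list with the largest absolute ratio above the floor, Ddit3 and Atf4, and 2 most alike genes per transporter. Alternatives were other means, pseudocounts, scalings, cell filters, floors and library sets left out. Some genes that this rule names are not reported here.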

Additional observations from a re-analysis of the deposited data

How the results depend on the processing

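Slc3a2 was at least 2-fold higher in Ecad- cells under each of 14 alternatives, with log2 ratios of 1.30 to 2.20, and Slc7a11 under 13 of 14, with 0.84 to 2.41. With a pseudocount of 10, which shrinks low genes, 1 of the 8 transporters (Slc3a2) was at least 2-fold higher. The Slc7a3 difference rests on its upper cells: with the median over cells it was 0 TPM in both fractions, a log2 ratio of 0. The count of transporters 2-fold higher was 2 to 4 under the other alternatives, and 4 (without low-share cells) to 6 were higher in all library sets. The share of all genes higher in all sets was counted under the main setting alone. The median of the transporters ranged from 0.47 (means of log values, where the all-gene median was -0.28) to 1.00 (without library set 1). Slc7a1 was at -0.01 without low-share cells, Slc1a4 at -0.09 with the median over cells, and Slc1a5 at -0.75 there. Rescaling to a total without mitochondrial and ribosomal protein genes took the all-gene median from 0.31 to 0.01 and that of the transporters to 0.59. With no floor, 7.61% of genes were called 2-fold higher. Of 686 values of 49 named genes, 586 moved by less than the SD over library sets. Another 99 moved by at least this SD, and 1 (Slc7a3 with the median over cells) lost its direction. A lost direction was counted only for genes at least 2-fold apart in the main setting. Changes of sign in smaller ratios, such as those of Slc7a1, Slc1a4 and Slc1a5 above, fall under the other counts. The SD is each gene's own, so genes whose sets differ most pass most easily, and the count does not show robustness. Slc7a1, with an SD of 0.76, passed in going from 0.57 to -0.01. No paired analysis was possible because the result comes from no test, and the numbers in the library titles only name cells. The fractions were compared within library sets, and with the sets weighted equally the median of the transporters was 0.79. Read depth is unknown, so detection cannot be compared at equal depth.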
